A study of Homo sapiens with 5 samples.

Results

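The let-7 miRNAs and their close relative miR-98 were described in 5 transformed hematopoietic cell lines. Members were the human probes of the panel named let-7 or miR-98. This gave 9 of 654 human probes, namely hsa-let-7a, hsa-let-7b, hsa-let-7c, hsa-let-7d, hsa-let-7e, hsa-let-7f, hsa-let-7g, hsa-let-7i and hsa-miR-98, written below without the species prefix. No probe for a passenger strand of a member was on the panel. Total RNA of each line was profiled on the nCounter system, which counts a color-coded reporter for each miRNA without amplification, with 100 ng of RNA per assay. The lines were K562, an erythroleukemia line, Meg-01, of megakaryoblasts, U937, of monocytic cells, and the lymphoblast lines Raji (B cell) and Jurkat (T cell). There was 1 sample per line, so no difference between lines could be tested and none has a replicate check. The human probes together gave 130048 counts in Jurkat, 109731 in Meg-01, 105224 in K562, 94027 in U937 and 66892 in Raji. All intervals are 95% intervals and cover counting error only, not variation between cultures or assays. In bulk RNA, a low level in all cells and a level confined to some of the cells cannot be told apart.

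The let-7 miRNAs are among the most conserved in animals and repress target mRNAs mainly through the seed, the bases near the 5′ end that pair with the target. They are known for accumulating as cells differentiate and for repressing genes such as the RAS genes, MYC and HMGA2. The RNA-binding proteins LIN28A and LIN28B bind the terminal loop of many let-7 precursors and block their maturation, while the level of each mature form also depends on transcription of its own host transcript.

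All 9 members were matched to a mature sequence of 22 bases in RefSeq (GRCh38.p14). The sequences are shown because they are nearly identical, so that the probes must tell apart RNAs that differ by a few bases. Capitals mark the seed, bases 2 to 8, which is the same in all 9.
let-7a: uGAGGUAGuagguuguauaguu
let-7b: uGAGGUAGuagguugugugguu
let-7c: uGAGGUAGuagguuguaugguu
let-7d: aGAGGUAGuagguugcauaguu
let-7e: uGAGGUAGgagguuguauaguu
let-7f: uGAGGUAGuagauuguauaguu
let-7g: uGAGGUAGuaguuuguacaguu
let-7i: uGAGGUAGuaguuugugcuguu
miR-98: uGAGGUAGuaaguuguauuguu

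With positions counted from 1 at the 5′ end of let-7a, let-7c differs from let-7a by A19G, let-7e by U9G and let-7f by G12A, 1 base each. let-7b differs by A17G and A19G, let-7d by U1A and U16C, let-7g by G12U and U18C, and miR-98 by G11A and A19U. let-7i stands farthest from let-7a, with G12U, A17G, U18C and A19U, and differs from let-7g by 2 bases. Of the 645 other human probes, 538 were matched by name to a mature sequence, and 0 of these carried the same seed.

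The 9 mature forms come from 12 hairpins, since let-7a is encoded at 3 loci and let-7f at 2. On GRCh38.p14, let-7a-1 (chr9:94175957-94176036, plus strand), let-7f-1 (chr9:94176347-94176433, plus strand) and let-7d (chr9:94178834-94178920, plus strand) lie within the span of the host gene MIRLET7A1HG. let-7a-2 (chr11:122146522-122146593, minus strand) lies within MIR100HG, near the hairpins of miR-100 and miR-125b-1. let-7a-3 (chr22:46112749-46112822, plus strand) and let-7b (chr22:46113686-46113768, plus strand) lie within MIRLET7BHG. let-7c (chr21:16539828-16539911, plus strand) lies within MIR99AHG beside miR-99a, and let-7e (chr19:51692786-51692864, plus strand) lies within SPACA6 near miR-99b and miR-125a. let-7f-2 (chrX:53557192-53557274, minus strand) and miR-98 (chrX:53556223-53556341, minus strand) lie within HUWE1. let-7g (chr3:52268278-52268361, minus strand) lies within WDR82 and let-7i (chr12:62603686-62603769, plus strand) within MIRLET7IHG. A mature let-7a or let-7f count does not show which of its loci it came from.

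The letters GGAG, an element of the precursor loop that LIN28 proteins bind, were searched in the hairpins. They were found in 9 of the 12 hairpins, counted over the whole hairpin, and not in let-7a-3, let-7b or miR-98. By the same measure 43.4% of all 1562 human hairpins in the table held GGAG on the RNA strand, and 58.9% held it or its reverse complement. The last 20 bases before the 3′ arm are shown for hairpins with and without the letters, which are in capitals where present.
let-7a-1: cacccaccacugGGAGauaa
let-7d: uuuugcccacaaGGAGguaa
let-7g: ccacccgguacaGGAGauaa
let-7i: auugcccgcuguGGAGauaa
let-7b: uguugccccucggaagauaa
miR-98: aggccccaauuagaagauaa
A match is a description, not a site or a cause.

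A probe was taken as above background when its count passed a threshold set at the mean of the 8 negative control probes of that line plus 2 of their SD. This threshold was 45.9 counts in Raji, 42.1 in Meg-01, 35.0 in Jurkat, 34.9 in U937 and 34.6 in K562. All 9 members were above background in Jurkat, 8 in U937, 7 in Meg-01, 7 in Raji and 5 in K562, against 35.0%, 28.3%, 27.2%, 17.0% and 27.5% of the 654 human probes. let-7a, let-7d, let-7e, let-7f and let-7g were above it in every line. let-7b did not exceed it in Meg-01, Raji, U937 or K562, miR-98 in Meg-01, Raji or K562, and let-7c and let-7i in K562. For comparison between lines, the lines were scaled by the geometric mean over the 100 most abundant human probes, 8 of which were members. The factor was 1.58 in Raji, 1.22 in K562, 1.04 in U937, 0.741 in Meg-01 and 0.805 in Jurkat, which put the threshold at 72.4, 42.3, 36.4, 31.2 and 28.2 scaled counts in that order. Raji had the lowest total and the highest scaled threshold, so low members were least measurable there.

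**Figure D1:**
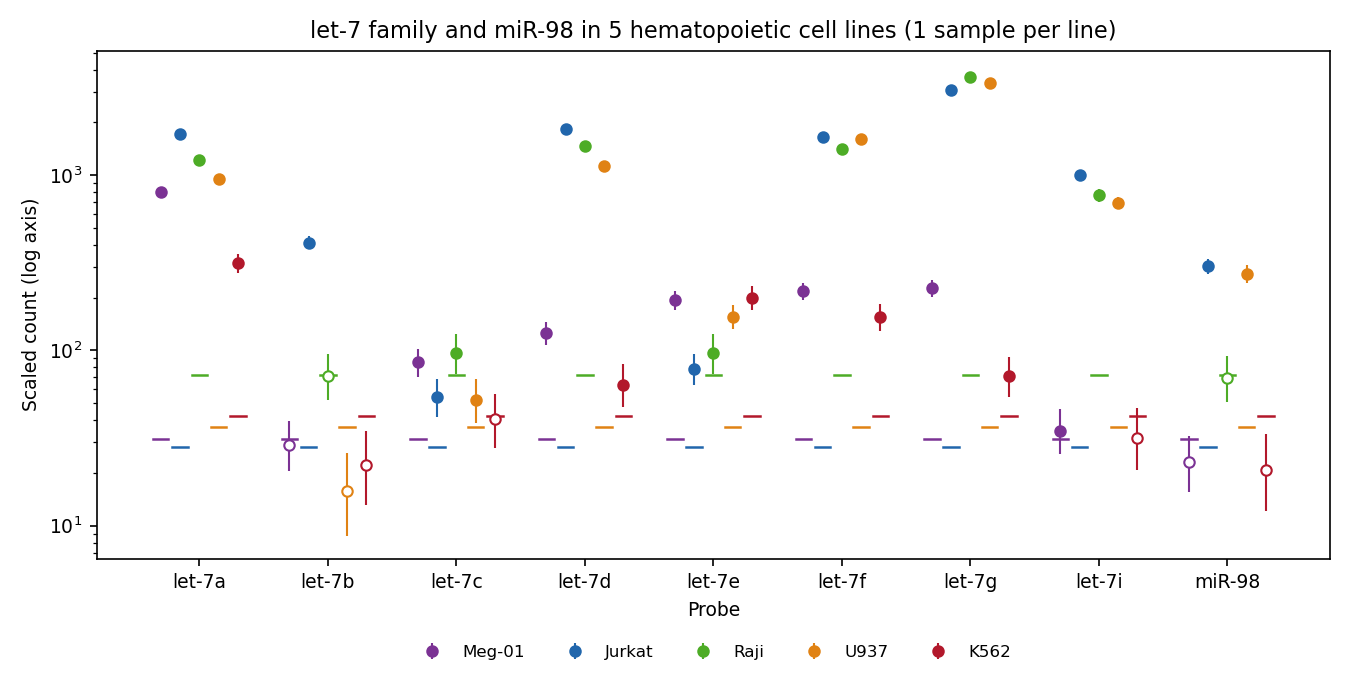
Scaled counts (log axis) of the 9 probes in the 5 lines, 1 sample per line, with vertical bars for 95% Poisson intervals, short horizontal marks for the background threshold of the line and open circles for values not above it. let-7g lies between 3064 and 3634 in Jurkat, Raji and U937 and at 226 in Meg-01 and 70.9 in K562, whereas let-7e lies between 78.1 and 199 in all 5.

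let-7g was the most abundant member in Jurkat, U937 and Raji. In Meg-01 let-7a was above it, and in K562 let-7a, let-7e and let-7f were. let-7g gave 3804 counts in Jurkat, 3219 in U937, 2302 in Raji, 305 in Meg-01 and 58 in K562. After scaling these were 3064, 3359, 3634, 226 and 70.9. The 3 high lines lay within 1.19-fold of each other in the main scaling and within 1.89-fold with housekeeping probes, the widest of the 7 scalings, and which of them was highest depended on the scaling, with Raji highest under 4 of 7 scalings, U937 under 2 and Jurkat under 1. Meg-01 and K562 were far below under all 7. The ratio of Raji over K562 was 51.2 (39.5 to 67.7), or 125 after subtraction, with the K562 count of 58 near its threshold of 34.6, and that of Raji over Meg-01 was 16.1 (14.3 to 18.2). As a share that needs no scaling, let-7g made up 3.44% of the human counts in Raji, 3.42% in U937, 2.93% in Jurkat, 0.278% in Meg-01 and 0.0551% in K562.

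let-7i, which differs from let-7g by 2 bases, followed the same division of lines. It gave 1251 counts in Jurkat, 663 in U937, 486 in Raji, 47 in Meg-01 and 26 in K562. The K562 count did not exceed background and the Meg-01 count, with an interval of 34.5 to 62.5, could not be told apart from its threshold of 42.1. After scaling, let-7i was 1008 in Jurkat, 767 in Raji and 692 in U937, and the intervals of Raji and U937 overlapped. Jurkat over Meg-01 was 28.9 (21.6 to 39.6), or 270 after subtraction, and Jurkat over K562 was at least 23.8-fold.

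let-7d gave 2269 counts in Jurkat, 1075 in U937, 924 in Raji, 169 in Meg-01 and 52 in K562. The scaled counts of 1827 in Jurkat, 1459 in Raji, 1122 in U937, 125 in Meg-01 and 63.6 in K562 had no overlapping intervals between neighbors in this order. Jurkat was highest and K562 lowest under all 7 scalings, while the order of Raji and U937 changed. With housekeeping probes the intervals of Meg-01 and K562 overlapped, and their ratio was 1.42 (1.03 to 1.97) against 1.97 (1.44 to 2.74) in the main scaling. Jurkat over K562 was 28.7 (21.8 to 38.6), 43.6 without scaling and 84.7 after subtraction, and Jurkat over Meg-01 was 14.6.

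let-7f gave 2057 counts in Jurkat, 1539 in U937, 889 in Raji, 293 in Meg-01 and 127 in K562. Scaled, these were 1657, 1606, 1403, 217 and 155, with Jurkat and U937 not distinguished. The same 3 lines were high as for let-7d, let-7g and let-7i, but the gap was smaller. Jurkat over K562 was 10.7 (8.91 to 12.9). Meg-01 over K562 was 1.40 (1.13 to 1.74), and with housekeeping probes it was 1.005 (0.813 to 1.25).

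For let-7d, let-7f, let-7g and let-7i, every one of Jurkat, Raji and U937 was above both Meg-01 and K562 under each of the 7 scalings. The smallest of the 3 over the larger of the other pair, with values entered at no less than the threshold, ran from 5.47 to 10.3 for let-7d, from 3.03 to 6.96 for let-7f, from 7.55 to 15.5 for let-7g and from 8.47 to 20.4 for let-7i. For let-7a the same ratio ran from 0.715 to 1.36, so the division of lines was not kept.

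let-7a, the member with 3 loci, gave 2143 counts in Jurkat, 1083 in Meg-01, 911 in U937, 774 in Raji and 256 in K562. Scaled, it was 1726 in Jurkat, 1222 in Raji, 951 in U937, 803 in Meg-01 and 313 in K562. Jurkat was highest and K562 lowest under all 7 scalings. The place of Meg-01 was not fixed. Meg-01 over Raji was 0.657 in the main scaling and 1.40 without scaling, and Meg-01 over U937 was 0.845 and 1.19. Jurkat over K562 was 5.51 (4.84 to 6.30), the smallest measured ratio of these lines among the 5 members above background in all lines, apart from let-7e.

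let-7e, which differs from let-7a by U9G, ran the other way. It gave 61 counts in Raji, 97 in Jurkat, 149 in U937, 163 in K562 and 260 in Meg-01. Scaled, it was 199 in K562, 193 in Meg-01, 155 in U937, 96.3 in Raji and 78.1 in Jurkat. In this scaling K562 and Meg-01 were not distinguished, nor were Raji and Jurkat. Meg-01 over U937 was 1.24 (1.0099 to 1.527), and over the 7 scalings it ran from 0.931 to 1.74, with Meg-01 over K562 from 0.695 to 1.60. K562 was above Jurkat by 2.55-fold (1.97 to 3.32), and over the 7 scalings this ratio ran from 1.68 to 2.78. Meg-01 was above Jurkat by 2.47-fold (1.95 to 3.15), with a range of 1.93 to 3.18. The highest line was K562 under 2 scalings and Meg-01 under 5, and the lowest was Jurkat under 4 and Raji under 3.

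let-7c, which differs from let-7a by A19G, was low everywhere. Counts were 33 in K562, not above background, 50 in U937, 61 in Raji, 67 in Jurkat and 115 in Meg-01. The scaled values of 85.3 in Meg-01 and 96.3 in Raji were not distinguished, and Meg-01 was highest under 4 scalings and Raji under 3. Meg-01 over Jurkat was 1.58 (1.16 to 2.17) and Meg-01 over K562 at least 2.01-fold.

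let-7b and miR-98 were measurable in few lines. let-7b gave 512 counts in Jurkat and 45 in Raji, 39 in Meg-01, 18 in K562 and 15 in U937, so that only Jurkat was above background. Jurkat over Meg-01 was at least 13.2-fold, over U937 at least 11.3-fold, over K562 at least 9.74-fold and over Raji at least 5.69-fold. miR-98 gave 374 counts in Jurkat, 262 in U937, 44 in Raji, 31 in Meg-01 and 17 in K562. Its scaled values of 301 in Jurkat and 273 in U937 were not distinguished, and Jurkat over Meg-01 was at least 9.65-fold. Raji, which was high in let-7d, let-7f, let-7g and let-7i, was thus not above background in either of these members, whose counts lay just under its threshold of 45.9. With the threshold at the mean of the negative controls or at a minimum of 30 counts, all 9 members were above it in Raji and in Meg-01, and 7 or 6 in K562. The first of these passes 61.9% of all human probes in Raji, 72.9% in Meg-01 and 62.8% in K562, and the other 40.5%, 45.0% and 33.3%. At this depth a level in Raji below 72.4 scaled counts was not detectable.

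The precision of these values follows the counts. The 3219 counts of let-7g in U937 had an interval of 3109 to 3332, or 3.47% on either side, whereas the 58 counts in K562 had 44.0 to 75.0, or 26.7%.

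The family sum is the sum of the 9 scaled counts after subtraction of the threshold, with members not above it entered as 0. It was 9873 (9697 to 10051) in Jurkat, 8171 (7941 to 8406) in Raji, 7918 (7738 to 8102) in U937, 1466 (1396 to 1538) in Meg-01 and 591 (526 to 659) in K562. Jurkat was highest, K562 lowest and Meg-01 next to lowest under all 7 scalings, while U937 exceeded Raji under the 6 scalings other than the main one. Raji over U937 was 1.03 (0.995 to 1.07), not distinguished, but 0.682 without scaling, 0.530 with positive controls and 0.504 with housekeeping probes. Jurkat over K562 was 16.7 (15.0 to 18.8), a log2 ratio of 4.06 (3.90 to 4.23). Jurkat over Meg-01 was 6.73 (6.40 to 7.09), and Meg-01 over K562 was 2.48 (2.20 to 2.81). Subtraction removed 35.6% of the raw sum of 750 counts in K562 and 2.51% of the 12574 in Jurkat, and without it Jurkat over K562 was 11.0 and Meg-01 over K562 was 1.89. The other scalings moved K562 relative to Jurkat for every probe alike, by a log2 shift of -0.60 without scaling, -0.57 with positive controls, -0.30 with total human counts, -0.32 with the members left out of the 100 highest and 0.12 with housekeeping probes.

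The share of the family in all human values of a line does not depend on scaling. It was 10.9% (10.7 to 11.1) in Jurkat, 10.8% (10.5 to 11.1) in Raji, 9.80% (9.59 to 10.02) in U937, 2.18% (2.07 to 2.28) in Meg-01 and 0.541% (0.482 to 0.603) in K562, with Clopper-Pearson bounds carried through the subtraction. Jurkat and Raji were not distinguished by this measure. Without subtraction they were, with 9.67% (9.51 to 9.83) in Jurkat and 8.35% (8.14 to 8.56) in Raji, and Raji was then not above U937, at 8.38%. A share also falls when other miRNAs are abundant, and without the 5 most abundant probes it was 23.5% in Jurkat, 23.0% in Raji, 20.4% in U937, 4.98% in Meg-01 and 1.63% in K562.

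**Figure D2:**
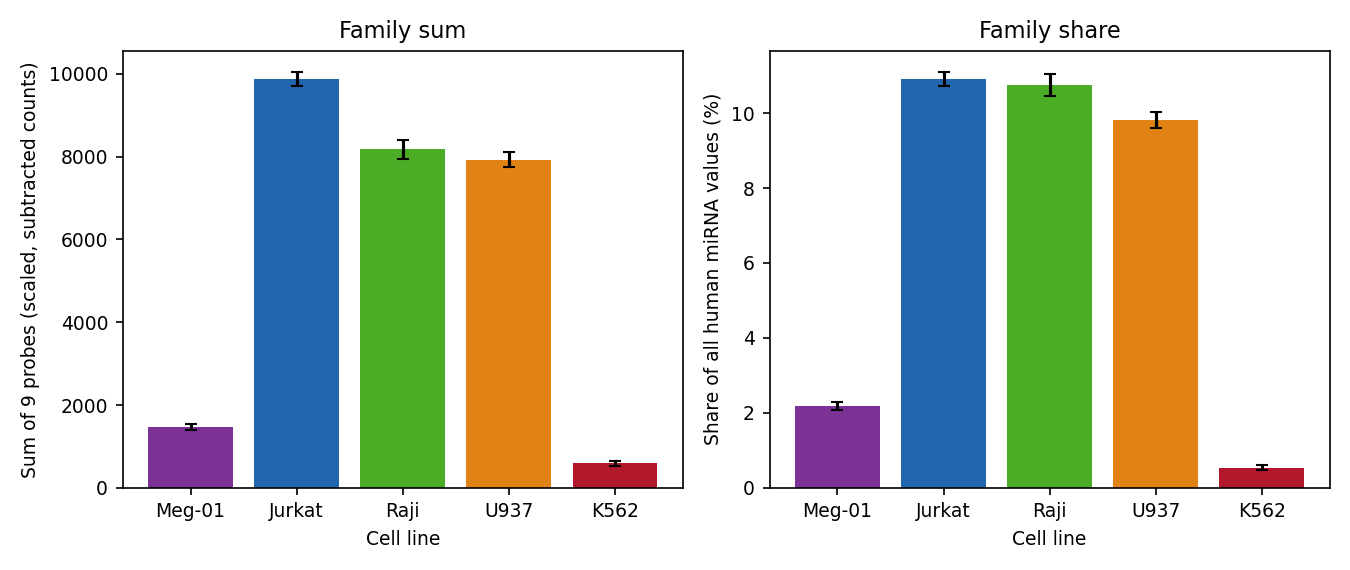
Left, sum of the 9 probes in scaled counts after background subtraction; right, the sum as a percentage of all human miRNA values of the line, with 95% intervals of counting error as error bars and 1 sample per line. Jurkat, Raji and U937 lie between 7918 and 9873 and between 9.80% and 10.9%, above Meg-01 at 1466 and 2.18% and K562 at 591 and 0.541%; other scalings exchange Raji and U937 at left, and without subtraction the shares at right are 9.67% in Jurkat, 8.38% in U937 and 8.35% in Raji.

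The make-up of the sum also differed between lines. let-7a was the leading member in Meg-01, with 52.6% (50.2 to 55.1) of the sum, and in K562, with 45.8% (40.6 to 51.3). let-7g led in Raji with 43.6% (42.2 to 45.0), in U937 with 42.0% (40.8 to 43.1) and in Jurkat with 30.7% (29.9 to 31.6). The share of let-7a fell to 17.2% in Jurkat, 14.1% in Raji and 11.5% in U937, and that of let-7g was 13.3% in Meg-01 and 4.84% in K562. let-7d held 18.2% in Jurkat, 17.0% in Raji, 13.7% in U937, 6.42% in Meg-01 and 3.60% (0.939 to 6.80) in K562. Before subtraction let-7d held 6.93% and let-7g 7.73% in K562. The share of let-7f varied by 1.56-fold, the smallest fold among the 5 members above background in all lines, with 12.7% in Meg-01, 16.3% in Raji, 16.5% in Jurkat, 19.1% in K562 and 19.8% in U937. let-7i held 9.92% in Jurkat, 8.50% in Raji and 8.28% in U937, while its 0.248% in Meg-01 could not be told apart from 0.

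let-7e was the second member of K562 with 26.6% (22.1 to 31.4) and held 11.0% in Meg-01, 1.504% in U937, 0.506% in Jurkat and 0.292% in Raji. Before subtraction let-7e held 0.771% in Jurkat and 1.09% in Raji, so the order of these lines turned. let-7c held 3.69% (2.69 to 4.82) in Meg-01, 0.292% (0.0165 to 0.625) in Raji, 0.261% in Jurkat and 0.199% in U937. In K562 it was entered as 0 because 33 counts did not pass 34.6. Before subtraction it held 4.4% there, 4.91% in Meg-01, 1.09% in Raji, 0.634% in U937 and 0.533% in Jurkat. let-7b held 3.89% in Jurkat, and miR-98 held 2.77% in Jurkat and 2.99% in U937. Grouped after their values were seen, let-7d, let-7f, let-7g and let-7i together made up 85.3% of the sum in Raji, 83.8% in U937, 75.4% in Jurkat, 32.7% in Meg-01 and 27.6% in K562. let-7a, let-7c and let-7e made up 14.7%, 13.2%, 18.0%, 67.3% and 72.4% in the same order. Shares compare probes whose counting efficiencies are not known, so their change between lines is better founded than their size within a line.

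**Figure D3:**
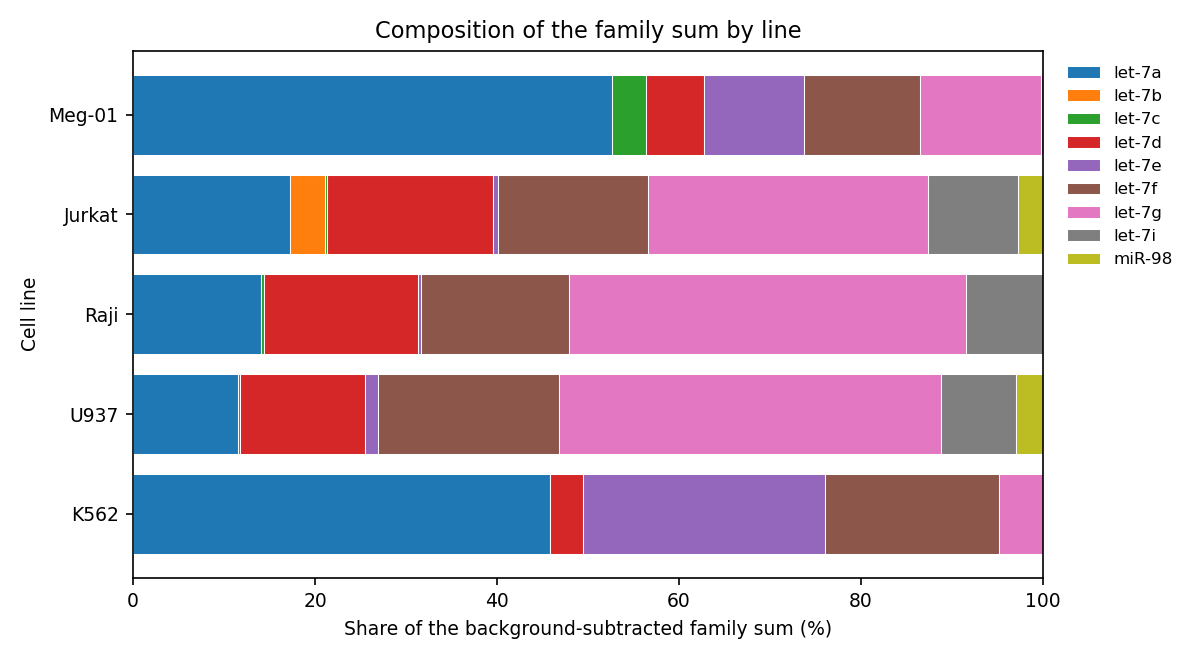
Share of each of the 9 probes in the background-subtracted family sum (percent, horizontal axis) in the 5 lines, 1 sample per line; probes not above background count as 0. let-7a takes 52.6% in Meg-01 and 45.8% in K562, and let-7g takes 30.7% to 43.6% in Jurkat, Raji and U937.

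Ratios of members within a line were taken on the raw counts and need no scaling. let-7d and let-7f-1 share a host transcript with let-7a-1, but the ratio of let-7d to let-7a was 0.156 (0.132 to 0.184) in Meg-01 and 0.203 (0.148 to 0.275) in K562 against 1.06 (0.998 to 1.12) in Jurkat, 1.19 (1.08 to 1.32) in Raji and 1.18 (1.08 to 1.29) in U937. The lines fell into separate ranges, and subtraction, tried after seeing the data, lowered the ratio to 0.122 in Meg-01 and 0.0785 in K562. let-7f over let-7a was 0.271 in Meg-01, 0.496 in K562, 0.960 in Jurkat, 1.15 in Raji and 1.69 in U937. let-7f over let-7d was 1.73 in Meg-01, 2.44 in K562, 0.907 in Jurkat, 0.962 in Raji and 1.43 in U937, and the K562 ratio was 5.32 after subtraction. How much of the let-7a and let-7f counts came from the shared transcript was not tested.

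let-7g over let-7a was 3.53 in U937, 2.97 in Raji, 1.78 in Jurkat, 0.282 in Meg-01 and 0.227 in K562, where subtraction lowered it to 0.106. let-7i over let-7a was 0.728 in U937, 0.628 in Raji, 0.584 in Jurkat and 0.0434 in Meg-01, with let-7i not above background in K562. The Meg-01 ratio was 0.00471 after subtraction. let-7e over let-7a was higher in Meg-01 and K562 than in the other lines, with 0.637 (0.520 to 0.778) in K562, 0.240 in Meg-01, 0.164 in U937, 0.0788 in Raji and 0.0453 in Jurkat. After subtraction it was 0.0208 in Raji and 0.0294 in Jurkat, so the order of these lines turned. let-7c over let-7a was 0.106 in Meg-01, 0.0788 in Raji, 0.0549 in U937 and 0.0313 in Jurkat, and after subtraction 0.0700, 0.0208, 0.0173 and 0.0152. In K562 the ratio was 0.129 before subtraction, with let-7c not above background there.

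Because 1 base separates let-7c, let-7e and let-7f from let-7a, reading of let-7a by these probes was bounded from the line with the lowest ratio. The let-7e count of Jurkat was 4.53% of its let-7a count. At that rate let-7a would give 49.0 of the 260 let-7e counts in Meg-01 and 11.6 of the 163 in K562. The let-7c count of Jurkat was 3.13% of let-7a, a rate that would give 33.9 of the 115 counts in Meg-01. The let-7f count of Meg-01 was 27.1% of let-7a, which would give 580 of the 2057 counts in Jurkat and 246 of the 1539 in U937. Where counts were low the bound was a large part, with 69.3 of the 127 let-7f counts in K562, 35.0 of the 61 let-7e counts in Raji and 28.5 of the 50 let-7c counts in U937. The let-7b count of U937 was 1.65% of let-7a, which would give 35.3 of the 512 counts in Jurkat. Reading of let-7a by the let-7d, let-7g, let-7i and miR-98 probes, and of members other than let-7a, was not tested.

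**Figure D4:**
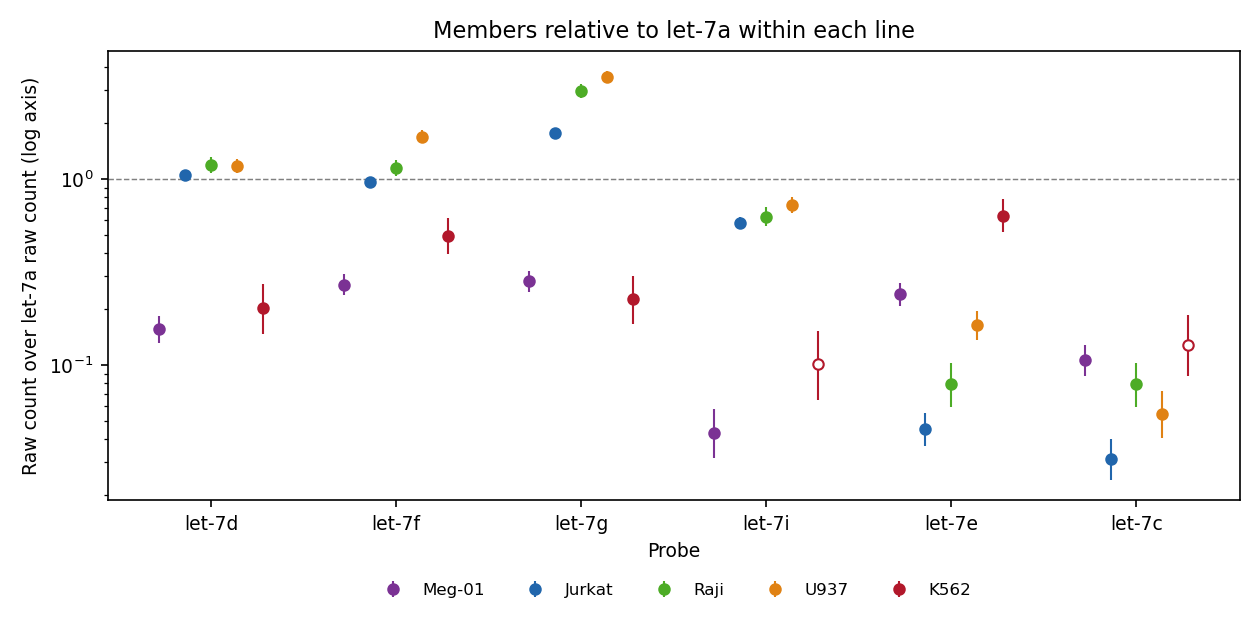
Raw count of 6 probes over the raw count of let-7a in the same line (log axis), with 95% conditional binomial intervals and open circles where the probe was not above background, 1 sample per line. let-7d, let-7f, let-7g and let-7i have lower ratios in Meg-01 and K562 than in the other lines, and let-7e has its highest ratio, 0.637, in K562.

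To set the members against all miRNAs, the highest line in which a probe was above background was divided by the lowest line, entered at no less than its threshold. More than 4-fold was reached by 7 of 9 members, against 20.5% of the 308 human probes above background in at least 1 line, and the median was 10.7 for the members and 1.94 for all. let-7g ranked 2 of 308, let-7i 4 and let-7d 5. let-7f ranked 26 and let-7a 47. let-7b ranked 19 and miR-98 30 by lower bounds of 13.2 and 9.65, so these ranks are not exact. The ratio was 2.55 for let-7e, which ranked 103, and at least 2.27 for let-7c, which ranked 131, and this bound was 1.45 with housekeeping probes. After subtraction the ratios were 125 for let-7g, 84.7 for let-7d and 270 for let-7i, the last over a Meg-01 count not told apart from its threshold. Under the other scalings the number past 4-fold was 7 or 8, against 18.2% to 25.6% of all probes, and after subtraction it was 8, against 42.2%. Members share most of their sequence and several share a transcript, so the 9 are not independent.

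**Figure D5:**
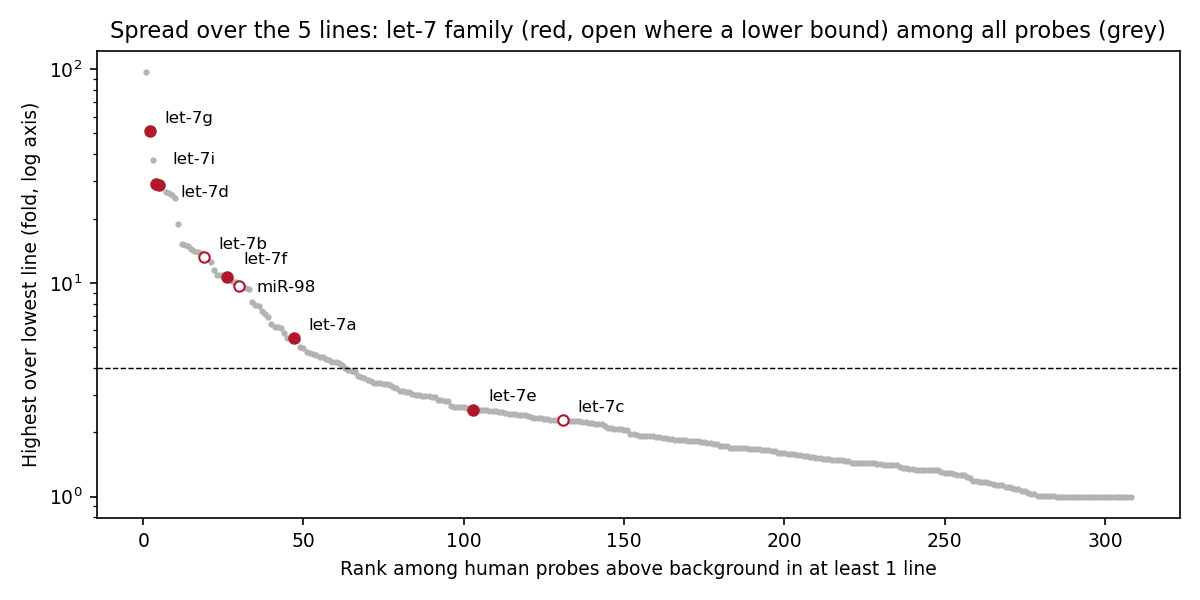
Highest over lowest line (fold, log axis) of the 308 human probes above background in at least 1 line, against their rank, with the 9 members in red, open where the value is a lower bound, and a dashed line at 4-fold. let-7g at 51.2, let-7i at 28.9 and let-7d at 28.7 rank among the first 5 before subtraction, which raises them to 125, 270 and 84.7, and let-7e at 2.55 and let-7c at 2.27 lie below the line, though let-7e passes it without scaling (4.26), with housekeeping scaling (4.43) and after subtraction (6.76).

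For pairs of lines, a member was called when its ratio passed 2-fold among probes above background in the first line. In Jurkat over K562, 7 of 9 members were called, against 11.4% of all probes, with medians of 9.74 and 0.742. The first median is the let-7b ratio, which is a bound. In Raji over K562, 6 of 7 were called against 26.1%, and in U937 over K562, 6 of 8 against 11.9%. Against Meg-01, the numbers were 7 of 9 in Jurkat (12.7% of all probes), 4 of 7 in Raji (45.9%) and 5 of 8 in U937 (12.4%). Calls over a line in which the member was not above background entered through the first line alone and are bounds. Against K562 these were let-7b, let-7i and miR-98 in Jurkat, let-7c and let-7i in Raji, and let-7i and miR-98 in U937. Against Meg-01 they were let-7b and miR-98 in Jurkat and miR-98 in U937. Only the other calls compare counts above background in both lines. Among these, the calls of let-7i against Meg-01 rest on a Meg-01 count of 47, not told apart from its threshold of 42.1. Over the 7 scalings the share of all probes in Raji over Meg-01 ran from 9.91% to 53.2%, while 4 of 7 members were called under each. The share ran from 7.21% to 39.6% in Raji over K562 and from 9.17% to 21.8% in Jurkat over Meg-01. let-7a lost its call in Jurkat over Meg-01 without scaling (1.98) and with total human counts (1.67). In Raji over K562 let-7c lost its call under 3 scalings and let-7a (1.82) with housekeeping probes, leaving 4 of 7 against 7.21%. The 7 of 9 in Jurkat over K562, 6 of 8 in U937 over K562 and 5 of 8 in U937 over Meg-01 were the number under every scaling, with shares of all probes of 10.04% to 15.3%, 11.9% to 23.2% and 7.57% to 27.6%.

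In Meg-01 over K562, 3 of 7 members were called against 15.7% of all probes, namely let-7g at 3.19 (2.40 to 4.30), let-7a at 2.56 (2.24 to 2.95) and let-7c at a bound of 2.01. Over the 7 scalings the ratio ran from 2.29 to 5.26 for let-7g and from 1.84 to 4.23 for let-7a. With housekeeping probes let-7a (1.84) and let-7c (1.45) lost the call, leaving 1 of 7 against 10.1%, and without scaling, with positive controls and with total human counts 5 of 7 were called, let-7d and let-7f being added, while the share of all probes rose to 25.8%, 25.3% and 25.3%. With both other choices of the 100 highest, let-7d was added (2.15 in each), giving 4 of 7 against 18.0%. let-7e at 0.967 (0.792 to 1.18) did not differ detectably between these lines in the main scaling. In the opposite direction let-7e was the called member in K562 over Jurkat (1 of 5, against 21.7% of all probes), K562 over Raji (1 of 5, against 15%), Meg-01 over Jurkat (1 of 7, against 23.6%) and Meg-01 over Raji (1 of 7, against 13.5%). The last ratio was 2.002, at the limit, and 1.86 with the members left out of the 100 highest. No member was called in Meg-01 over U937 (0 of 7, against 17.4% of all probes), K562 over U937 (0 of 5, against 15%) or K562 over Meg-01 (0 of 5, against 21.7%). Over the 7 scalings the share of all probes in K562 over Meg-01 ran from 7.22% to 56.1%, with 0 of 5 called under each. This share ran from 11.1% to 34.4% in K562 over Raji and from 12.4% to 29.8% in Meg-01 over Raji. The call of let-7e in K562 over Jurkat was lost without scaling (1.68) and with positive controls (1.71), that in Meg-01 over Jurkat with housekeeping probes (1.93), and that in K562 over Raji with total human counts (1.70) and with the members left out of the 100 highest (1.77). let-7c was called in Meg-01 over U937 without scaling (2.30) and in Meg-01 over Jurkat with total human counts (2.03).

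Among the 3 high lines few members differed by 2-fold in the main scaling. Calls were 0 of 7 in Raji over Jurkat, against 28.8% of all probes, and 0 of 7 in Raji over U937, against 24.3%. Over the 7 scalings these shares ran from 4.50% to 28.8% and from 0.901% to 24.3%, with 0 of 7 called under each. In U937 over Jurkat calls were 0 of 8, against 9.19%, where 4 other scalings called let-7e (2.03 to 2.12). In Jurkat over Raji, let-7b and miR-98 were called, 2 of 9 against 6.99%, both as bounds, but 6 of 9 were called without scaling, with positive controls and with housekeeping probes, let-7a, let-7d, let-7f and let-7i being added, while the share of all probes rose to 21.4%, 18.8% and 21.4%. In Jurkat over U937, let-7b was called as a bound, 1 of 9 against 7.42% (3 without scaling, against 10.04%). In U937 over Raji, miR-98 was called at a bound of 3.78, 1 of 8 against 5.41%. Without scaling this was 2 against 14.6%, with positive controls 3 against 23.8% and with housekeeping probes 3 against 24.3%.

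Likeness of pattern was measured as the root mean square difference of log2 scaled counts over the 5 lines, each probe floored at the threshold and centered on its own mean, so that 0 is an identical pattern. The closest pairs of members were let-7d and let-7i (0.45), let-7d and let-7g (0.49) and let-7d and let-7f (0.53). These lie on different chromosomes, except for let-7d and let-7f-1. let-7i entered at its threshold in K562, and its Meg-01 count was not told apart from the threshold. The likeness of let-7i to other probes thus rests in part on thresholds. let-7a and let-7d, which share a transcript only at the let-7a-1 locus, differed by 1.32. let-7e and let-7g differed most, by 2.82. Sequence and pattern did not run together throughout, since let-7d and let-7i differ by 6 bases and let-7a and let-7e by 1 base, with a pattern difference of 1.32.

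Likeness to the family was measured against the sum of the 9 scaled counts before subtraction, not against the subtracted sum given above. Of 193 other human probes above background in at least 2 lines, miR-9 was most like this sum, at 0.34. It gave 573 counts in Jurkat, 240 in U937, 157 in Raji, 115 in Meg-01 and 31 in K562, the last not above background. The next were miR-16 (0.89), miR-148a (0.90), miR-450a (0.98) and miR-660 (0.99). miR-450a was below background in Raji (16 counts) and K562 and entered at the threshold there, so its match rests in part on the threshold. The same 5 were found with total human counts as the scaling and with let-7a left out of the sum. miR-9 was also the nearest probe to let-7d (0.84), let-7f (0.48), let-7g (1.25), let-7i (1.10) and miR-98 (0.76). Other probes were nearest to let-7a (miR-142-5p, 0.46), let-7c (miR-154, 0.29, above background in 2 lines only, so that much of the match is between thresholds) and let-7e (miR-92a, 0.49). miR-342-3p (0.47) came out nearest to let-7b, but 4 of the 5 let-7b values are thresholds, so no likeness is read from it. The values of miR-98 are thresholds in 3 lines, and its match rests largely on them.

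The miRNAs encoded beside let-7c, let-7e and let-7a-2 were examined as the other products of their transcripts. Near let-7e, miR-125a-5p gave 14 counts in Raji, not above background, 38 in Jurkat, 92 in U937, 350 in K562 and 500 in Meg-01. The Jurkat interval of 26.9 to 52.2 spanned its threshold of 35.0. The raw counts of let-7e also rose from U937 to K562 to Meg-01, with overlapping intervals in U937 and K562. In the main scaling miR-125a-5p was 30.6 in Jurkat, below the Raji threshold of 72.4, so the order of Jurkat and Raji was not measured. These lines were not distinguished for let-7e either. miR-99b gave 118 counts in Meg-01 and 98 in K562 and was not above background in the other lines, where it gave 26 to 30 counts. miR-125a-3p gave 41 counts in both K562 and Meg-01, with an interval of 29.4 to 55.6 that spans both thresholds, 34.6 and 42.1, so it was not told apart from background in either.

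Near let-7c, miR-99a gave 437 counts in Meg-01, and 48 in Raji, 34 in Jurkat, 34 in U937 and 30 in K562, where Raji exceeded its threshold of 45.9 by little and the last 3 did not. miR-125b, made from the host transcripts of let-7c and let-7a-2, gave 560 counts in Meg-01, 64 in Raji, 41 in Jurkat, 36 in K562 and 34 in U937. The U937 count did not exceed background, and the Jurkat and K562 counts could not be told apart from their thresholds. miR-100, encoded near let-7a-2, was above background in 0 lines, with 40 counts in Meg-01 as its highest. The high line of let-7c before scaling, Meg-01, was thus the high line of miR-99a and miR-125b, though let-7c itself was 115 there.

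Marker miRNAs were read as a check of the labels. miR-142-3p, made in blood cells, was abundant in all lines, from 7436 counts in K562 to 32907 in Jurkat. The erythroid miR-144 gave 981 counts in Meg-01 and 216 in K562, and miR-451 gave 129 and 59, with neither above background in Jurkat, Raji or U937. miR-126, found in megakaryocytes and progenitors, gave 31 counts in Raji, 96 in U937 and 99 in Jurkat against 1482 in K562 and 1954 in Meg-01. Over the 7 scalings Meg-01 over K562 ran from 1.98 to 4.54 for miR-144, from 0.952 to 2.19 for miR-451 and from 0.574 to 1.32 for miR-126. The erythroid miR-144 was thus higher in Meg-01, labeled as megakaryoblastic, than in K562, labeled as erythroleukemic, and these markers did not separate the lines as their labels would. The myeloid miR-223 gave 62 counts in Raji, 732 in Jurkat, 1684 in K562, 2682 in U937 and 3269 in Meg-01. miR-150, of mature lymphocytes, was above background in Jurkat alone, with 1030 counts, and not in Raji (21 counts). miR-155 was highest in Raji (254) and U937 (253). Meg-01 and K562, the lines with the lowest let-7 sums, were thus those with miR-144, miR-451 and high miR-126, and the part of lineage in the let-7 levels was not tested, since each line is 1 culture.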

How the data were processed

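For each line the authors deposited the raw count of 753 probes, with no normalization or background correction, and a signal table of the human probes corrected for background. Each deposited signal equals the count minus 1 constant per line, set to 0 where negative, with no scaling. The constant was the mean of the line's negative controls in Meg-01, Raji and U937, and differed from it by -6.50 in Jurkat and 2.50 in K562, so the counts were used and the signals kept as an alternative. The methods name 2 kit versions, and which of them these lines were run on could not be settled, so no version correction was applied.

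Lines were scaled by the geometric mean over the 100 human probes with the highest mean count, as in the study's methods. The threshold was set 2 SD over the mean of the negative controls. For sums and shares it was subtracted from values above it, and other values were entered as 0. The sum used for likeness of pattern was taken before subtraction. Ratios between lines used values before subtraction with the lower line floored at its threshold, and are given as "at least" where the floor applied. For pairs, probes above background in the first line were compared. For the highest over the lowest line, the highest was taken among lines in which the probe was above background. Both limits were set after a first pass, in which the high Raji threshold raised ratios of probes not above background there. The second lowered the median over all probes from 2.57 to 1.94 and did not change the number past 4-fold. Intervals are exact Poisson for counts, Clopper-Pearson for shares and conditional binomial for ratios, at 95%. With 1 sample per line no test was run.

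The miRNAs named were the 9 members, probes with their seed, those encoded in the same transcripts, 7 lineage markers, the 5 probes most like the sum before subtraction and the probe most like each member. Members and lists were chosen with earlier results of these data known. Alternatives covered no scaling, positive controls, housekeeping probes, total human counts, the 100 highest chosen per line or without members, no subtraction, thresholds at the mean, at the highest control or at 3 SD, a minimum of 30 counts, the deposited signals, and shares without the 5 most abundant probes. Ratios within a line after subtraction, the order of lines and the calls of each member under every scaling, ratios of Meg-01 over K562 and U937 and of the sum in Raji over U937 under every scaling, the shares of all probes beside the member counts under each setting, the order of markers under every scaling, and the bounds on reading of let-7a by other probes were added after seeing the data. Sequences and positions are from RefSeq tables of GRCh38.p14, which give gene spans and not exons here. On simulated counts, the ratio of raised probes relative to unchanged ones and the coverage of a ratio interval without subtraction were checked. The size of the scaling factors, thresholds, floors, subtraction, shares and calls were not checked this way. Python 3.11.15, numpy 2.4.6, pandas 2.3.3, scipy 1.17.1 and matplotlib 3.10.9 were used. Virus probes were not analysed here.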

Additional observations from a re-analysis of the deposited data

How the results depend on the processing

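The ratios of family sums in Jurkat over K562 and Meg-01 over K562 kept their direction under the alternatives tried. Of the alternative values for the main comparisons, 168 stayed within their counting interval or, for numbers of members, within 1.5 times, and 56 moved further. These counts include the numbers of members past 2-fold, tried after seeing the data, among them pairs with 0 called under every scaling. For family sums, 7 moved and 4 did not in Jurkat over K562, and 5 and 6 in Meg-01 over K562. Family shares moved in 16 values and not in 14, and shares of the leading member in 5 and not in 20. The 20 numbers above background and the 7 past 4-fold did not move. The log2 ratio of the family sum in Jurkat over K562 became 4.67 without scaling, 4.64 with positive controls, 4.36 with total human counts, 4.38 with the members left out of the 100 highest, 3.46 without subtraction, 3.83 with the threshold at the mean of the negative controls and 3.88 with the deposited signals. In Meg-01 over K562 it became 2.03 without scaling, 1.91 with positive controls, 0.83 with housekeeping probes, 1.97 with total human counts and 0.92 without subtraction.

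The family share without the 5 most abundant probes was 23.5% in Jurkat, 23.0% in Raji, 20.4% in U937, 4.98% in Meg-01 and 1.63% in K562, as fewer probes enter the denominator. Without subtraction it was 9.67% in Jurkat, 8.38% in U937, 8.35% in Raji and 0.713% in K562. With the threshold at the mean it was 10.6%, 9.44%, 10.1% and 0.615% in these lines, and with the deposited signals 10.4% in Jurkat, 10.1% in Raji and 9.44% in U937. The share of let-7a in the sum of Meg-01 was 46.2% without subtraction, 49.2% with the threshold at the mean and 49.2% with the deposited signals, and in K562 it was 34.1% without subtraction. The share of let-7g in Raji was 41.2% without subtraction. Beyond the scaling and subtraction themselves, the cause was not tested.

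Numbers of members past 2-fold under the other scalings, tried after seeing the data, moved as follows, with the share of all probes past 2-fold in brackets. In Meg-01 over K562, 5 of 7 were called without scaling (25.8%), 5 with positive controls (25.3%), 5 with total human counts (25.3%) and 1 with housekeeping probes (10.1%), against 15.7% in the main scaling. In Jurkat over Raji, 6 of 9 were called without scaling (21.4%), 6 with positive controls (18.8%) and 6 with housekeeping probes (21.4%), against 6.99%. In Jurkat over U937, 3 of 9 were called without scaling (10.04%). In U937 over Raji, 2 of 8 were called without scaling (14.6%), 3 with positive controls (23.8%) and 3 with housekeeping probes (24.3%), against 5.41%. In U937 over Jurkat, 1 of 8 was called with positive controls (10.8%), housekeeping probes (10.3%), total human counts (10.8%) and the 100 highest chosen per line (9.73%). In Meg-01 over Jurkat, 0 of 7 were called with housekeeping probes (18.0%) and 2 with total human counts (27.5%), in Meg-01 over U937, 1 of 7 without scaling (23.0%), and in Meg-01 over Raji, 0 of 7 with the members left out (12.4%). In K562 over Jurkat, 0 of 5 were called without scaling (11.1%) and with positive controls (11.1%), and in K562 over Raji, 0 of 5 with total human counts (11.1%) and with the members left out (11.7%).

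Of the other values, 37 moved and 48 did not. The depth limits the low members most, since a K562 count below 34.6 or a Raji count below 45.9 could not be told from background. No paired analysis was possible because each line had 1 sample, and no sample could be left out in turn.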
